A study of Mus musculus with 8 samples.

Results

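The genes described here were the ATF4 response genes and the cytosolic tRNA synthetase genes of mouse bone marrow-derived macrophages, 36 of the 17492 genes in the deposited table. They were chosen by name, 17 as genes of the ATF4 response and 19 as cytosolic aminoacyl-tRNA synthetases, and the rule uses no measured value, although the names were chosen with earlier results of these libraries known. All 36 had a row in the table, and all 36 passed the filter on low counts that left 11700 genes for testing.

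Gene expression was measured by RNA sequencing of macrophages grown from the bone marrow of C57BL/6 mice. The 4 control libraries came from cells in normal medium, and the 4 serine/glycine-free libraries, labelled as serine deficient, came from cells in medium lacking serine and glycine. No other agent or allele is named in the labels, nor are the length of the withdrawal, the age of the mice or a stimulus. The labels do not say whether the libraries of a group came from separate cultures or animals, so p-values here reflect library-to-library spread alone, and that spread may be technical. Total counts ran from 17565291 to 18201599 per library, and the 36 genes had between 14 and 4790 counts in a library. In bulk RNA, fewer cells of a type and less RNA per cell cannot be told apart.

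ATF4 is a transcription factor whose protein is made from its mRNA chiefly when the translation factor eIF2 is phosphorylated. Kinases such as GCN2 (Eif2ak4), which senses uncharged tRNA, carry out that phosphorylation, and the program that follows is called the integrated stress response. Its known targets include enzymes and transporters that supply amino acids, regulators that feed back on translation, and many of the cytosolic aminoacyl-tRNA synthetases, the enzymes that load each amino acid on its tRNA. ATF4 is thus regulated to a large extent in translation, and mRNA levels such as those given here do not measure its protein.

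ATF4 pairs with C/EBP proteins on a composite DNA element, the C/EBP-ATF response element, written here as TGATGNAA (TTNCATCA when read on the other strand). Promoter sequences from RefSeq on build GRCm38.p6, from 250 bases before to 50 bases after each annotated start, were found for 28 of the 36 genes, which had 30 promoters. No entry was matched for Cars, Eif4ebp1, Hars, Lars, Nars, Rars, Vars and Wars. The element, searched on both strands, was present in 10 of the 30 promoters (33.3%), those of Aars, Asns, Gars, Iars, Nupr1, Pycr1, Tars, Trib3, Vldlr and Yars. It was present in 5 of 12 synthetase promoters and in 5 of 18 promoters of ATF4 response genes. Of all 32851 promoters in the table, 3.97% held it, and of the 12027 promoters of genes tested here 2.37% held it. A match describes the letters only and is not a measured binding site. Of the genes whose mRNA rose in the comparison below, Aars and Asns held the element, in 2 of 5 promoters of risen genes. It was in 0 of 5 promoters of genes that fell and in 8 of 20 promoters of genes that did not pass the test.

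The 4 promoters below are shown because they set Asns and Aars, which rose, beside 2 synthetases that hold the same element and whose mRNA did not pass the test. Each runs 5′ to 3′ on the strand of its gene, and capitals mark the element in either orientation. Asns lay at chr6:7693160-7693459 on the minus strand, Aars at chr8:111033592-111033891 on the plus strand, Gars at chr6:55037751-55038050 on the plus strand and Iars at chr13:49681880-49682179 on the plus strand.
Asns: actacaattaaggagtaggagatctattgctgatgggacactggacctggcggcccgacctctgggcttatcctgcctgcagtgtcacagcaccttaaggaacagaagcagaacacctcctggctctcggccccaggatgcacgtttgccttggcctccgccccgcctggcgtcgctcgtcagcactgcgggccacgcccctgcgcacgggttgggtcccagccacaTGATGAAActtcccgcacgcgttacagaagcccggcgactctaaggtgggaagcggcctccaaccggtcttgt
Aars: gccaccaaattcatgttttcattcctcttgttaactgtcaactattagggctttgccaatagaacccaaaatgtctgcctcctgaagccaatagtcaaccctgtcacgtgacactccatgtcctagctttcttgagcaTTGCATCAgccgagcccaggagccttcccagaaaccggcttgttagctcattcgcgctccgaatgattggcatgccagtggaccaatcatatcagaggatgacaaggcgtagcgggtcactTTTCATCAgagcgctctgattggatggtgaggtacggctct
Gars: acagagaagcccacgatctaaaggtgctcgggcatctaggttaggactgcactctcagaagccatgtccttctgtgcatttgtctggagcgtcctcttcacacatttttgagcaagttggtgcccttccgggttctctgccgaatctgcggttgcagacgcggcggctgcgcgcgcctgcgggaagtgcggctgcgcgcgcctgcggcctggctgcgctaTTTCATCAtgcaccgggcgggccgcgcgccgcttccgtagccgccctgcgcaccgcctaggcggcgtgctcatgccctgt
Iars: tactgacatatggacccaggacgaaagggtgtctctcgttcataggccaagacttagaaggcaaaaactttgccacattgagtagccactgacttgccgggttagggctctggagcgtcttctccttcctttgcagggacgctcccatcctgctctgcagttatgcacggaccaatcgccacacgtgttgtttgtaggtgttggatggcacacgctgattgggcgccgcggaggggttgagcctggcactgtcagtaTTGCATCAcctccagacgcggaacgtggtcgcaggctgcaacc
The element of Asns, the asparagine synthetase, began 23 bases before the start, and that of Gars, the glycyl-tRNA synthetase, 30 bases before it. Aars, the alanyl-tRNA synthetase, held 2 matches, 112 bases before and 9 bases after the start of the promoter shown. The coordinates of the Aars gene itself begin upstream of that promoter, at chr8:111027778. The element of Iars, the isoleucyl-tRNA synthetase, began 7 bases after the start. Among all 11 matches in these promoters the spelling TTGCATCA was found 5 times.

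The first question was how the 36 mRNAs differed between medium without serine and glycine and normal medium. Of the 36, 7 rose, 6 fell and 23 did not pass edgeR's quasi-likelihood test at a Benjamini-Hochberg adjusted p of 0.05 over all genes tested. That is 36.1% called, against 33.2% of all genes tested, of which 15.9% rose and 17.3% fell. The ATF4 response genes split evenly, with 4 higher, 4 lower and 9 not passing (47.1% called). Among the synthetases 3 rose, 2 fell and 14 did not pass (26.3% called). For 14 of the 36 genes the 4 serine/glycine-free libraries did not overlap the 4 control libraries, and this held for 30.6% of all genes tested. The changes were small. Among the synthetases 0 of 19 combined a call with a change of at least 1.2-fold, and among the ATF4 response genes 0 rose and 3 fell by that much, while 816 of all genes tested rose and 584 fell by that much.

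**Figure D1:**
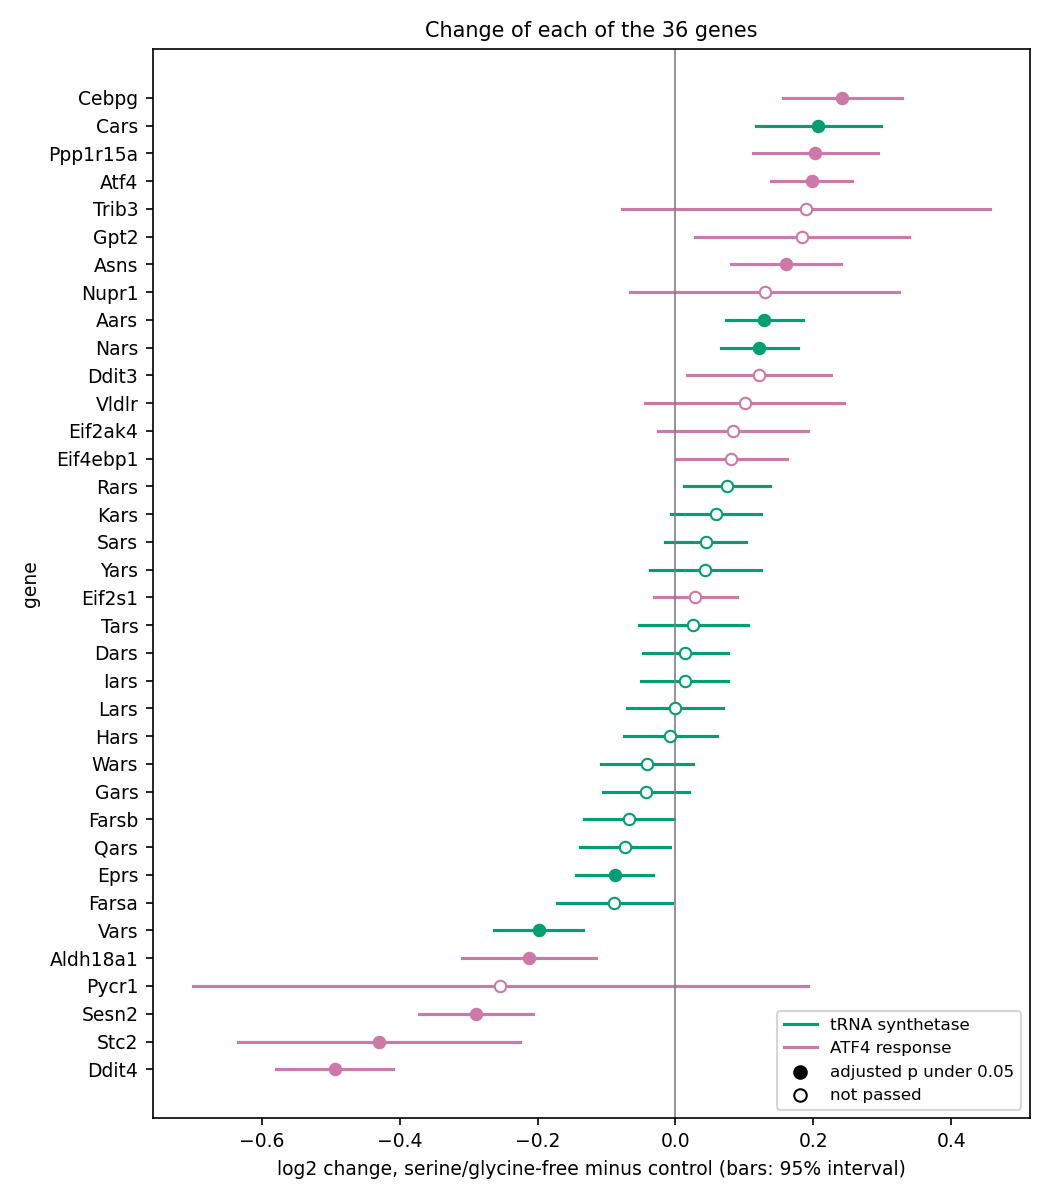
The log2 change of each of the 36 genes, serine/glycine-free minus control, with its 95% interval, in order of size, 4 libraries a group. Filled points passed at an adjusted p under 0.05; Cebpg stands at the top with 0.24 and Ddit4 at the bottom with -0.49, and the synthetases lie between -0.20 and 0.21.

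The mRNAs of the regulators of the integrated stress response had positive estimates in 8 of 8 cases, with a median log2 change of 0.16, and 3 of the 8 rose. Over all genes tested 6095 of 11700 estimates were positive, the median was 0.0074 and 15.9% rose. Among 15 tested genes of a separate list below, with other eIF2 kinases and eIF2 subunits, 6 estimates were positive and 9 negative. The count of 8 of 8 thus holds for these names alone. With the trend with gene length removed, the estimate of Nupr1 was 0.0020 and that of Ddit3 0.026. Atf4 itself (Entrez 11911, chr15:80255184-80257545, plus strand) stood at 152, 153, 149 and 150.4 CPM (counts scaled to a common library total) in control replicates 1 to 4 and at 167, 173, 173 and 180.5 CPM in serine/glycine-free replicates 1 to 4. Every serine/glycine-free library lay above every control library. The log2 change was 0.20 (SE 0.029, adjusted p = 4.27e-07 in edgeR), a rise of 14.7% with a 95% interval of 10.1% to 19.5%. Cebpg, a C/EBP protein that pairs with ATF4 on DNA, had 39.3, 41.8, 41.1 and 41.2 CPM in the controls and 49.7, 49.1, 48.5 and 45.9 CPM without serine and glycine. The groups did not overlap, and its log2 change of 0.24 (SE 0.043, adjusted p = 1.30e-05) was the highest of the 36 genes. Ppp1r15a (GADD34), which brings a phosphatase to eIF2 and so ends the response, went from 37.1, 37.8, 35.8 and 35.3 CPM to 41.0, 43.2, 40.7 and 43.1 CPM. Its groups also stood apart, and it rose by a log2 change of 0.20 (SE 0.045, adjusted p = 0.000332).

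The other 5 regulators did not pass. Ddit3 (CHOP), a transcription factor of prolonged stress, had 27.2, 26.7, 24.9 and 28.4 CPM in the controls and 28.7, 29.1, 28.6 and 30.2 CPM without serine and glycine. The lowest serine/glycine-free library was above the highest control by a narrow margin, and the log2 change was 0.12 (SE 0.052, adjusted p = 0.0678). Ddit3 passed when library sizes alone were used for scaling (adjusted p = 0.0487) or without control replicate 4 (adjusted p = 0.0385). Its exons share 68 bases with Mars on the opposite strand, and the strand used in counting is not stated. Trib3, a pseudokinase induced by ATF4 and CHOP, was scarce, with 3.30, 4.30, 3.76 and 3.21 CPM in the controls and 4.0, 5.05, 3.67 and 3.89 CPM without serine and glycine. The groups overlapped, and the interval of its log2 change, 0.19, ran from -0.078 to 0.46 (adjusted p = 0.288). Nupr1, a small stress-induced nuclear protein, had a log2 change of 0.13 (adjusted p = 0.326). Eif2ak4, the kinase GCN2, had 0.084 (adjusted p = 0.244), with 22.3 to 24.8 CPM in the controls and 24.6 to 26.2 CPM without serine and glycine. Eif2s1, the eIF2 subunit that is phosphorylated, had 0.029 (adjusted p = 0.496).

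Of the 3 genes that restrain growth signalling or translation, 2 fell and 1 did not pass, where 17.3% of all genes tested fell. Ddit4 (REDD1), a stress-induced inhibitor of the growth kinase complex mTORC1 (Entrez 74747, chr10:59949675-59951770, minus strand), had 53.9, 57.8, 54.3 and 52.8 CPM in the controls and 38.2, 39.2, 38.7 and 39.3 CPM without serine and glycine. The libraries of each group lay close together with a wide gap between the groups. Ddit4 fell by 29.0% (95% interval -33.1% to -24.7%, log2 change -0.49, SE 0.042, adjusted p = 4.51e-13), which put it at percentile 1.56 of the log2 changes of all genes tested. Sesn2 (sestrin 2), a leucine-binding inhibitor of the same complex, had 58.6, 57.5, 58.0 and 58.8 CPM in the controls and 45.5, 51.1, 46.6 and 47.2 CPM without serine and glycine. It fell by 18.2% (log2 change -0.29, SE 0.041, adjusted p = 1.88e-07), and the highest serine/glycine-free library was below the lowest control. Eif4ebp1 (4E-BP1), which binds the cap-binding factor eIF4E and blocks cap-dependent translation, had 56.3 to 60.4 CPM in the controls and 58.8 to 65.0 CPM without serine and glycine, and did not pass (log2 change 0.081, adjusted p = 0.116). Its estimate was -0.0099 once the length trend was taken out.

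The 4 enzymes of amino acid synthesis did not move together, with 1 higher, 1 lower and 2 not passing. Over all genes tested 15.9% rose and 17.3% fell. Asns, which makes asparagine from aspartate (Entrez 27053, chr6:7675165-7693209, minus strand), had 58.6, 56.8, 54.4 and 53.3 CPM in the controls and 64.4, 60.3, 63.0 and 61.6 CPM without serine and glycine. All serine/glycine-free libraries were above all controls, and Asns rose by 11.8% (log2 change 0.16, SE 0.040, adjusted p = 0.00132). Gpt2, the mitochondrial alanine transaminase, had 10.5, 11.5, 10.4 and 9.50 CPM in the controls and 11.9, 11.7, 12.6 and 11.4 CPM without serine and glycine. Control replicate 2 lay within the other group. Gpt2 did not pass (log2 change 0.18, SE 0.077, adjusted p = 0.0624), but passed without that library (0.23, adjusted p = 0.0280). Aldh18a1 and Pycr1 act at the start and the end of proline synthesis from glutamate. Aldh18a1 had 37.9, 36.8, 34.9 and 39.1 CPM in the controls and 31.5, 33.2, 33.1 and 30.5 CPM without serine and glycine. It fell by 13.7% (log2 change -0.21, SE 0.048, adjusted p = 0.000498) with no overlap. Pycr1 was the scarcest of the 36 genes, at 1.23, 1.38, 1.23 and 1.35 CPM in the controls and 1.15, 1.11, 0.779 and 1.31 CPM without serine and glycine. Its interval, from -0.70 to 0.19 around a log2 change of -0.25 (adjusted p = 0.411), was the widest of all 36.

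The last pair of ATF4 response genes encodes a secreted protein and a surface receptor. Stc2, the secreted glycoprotein stanniocalcin 2, had 7.49, 6.78, 6.78 and 6.52 CPM in the controls and 5.15, 4.71, 4.90 and 5.71 CPM without serine and glycine. The groups stood apart, and Stc2 fell by 25.8% (log2 change -0.43, SE 0.10, adjusted p = 0.00077). Vldlr, the very low density lipoprotein receptor, had 11.4 to 13.6 CPM in the controls and 13.03 to 14.2 CPM without serine and glycine, and did not pass (log2 change 0.10, adjusted p = 0.298).

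**Figure D2:**
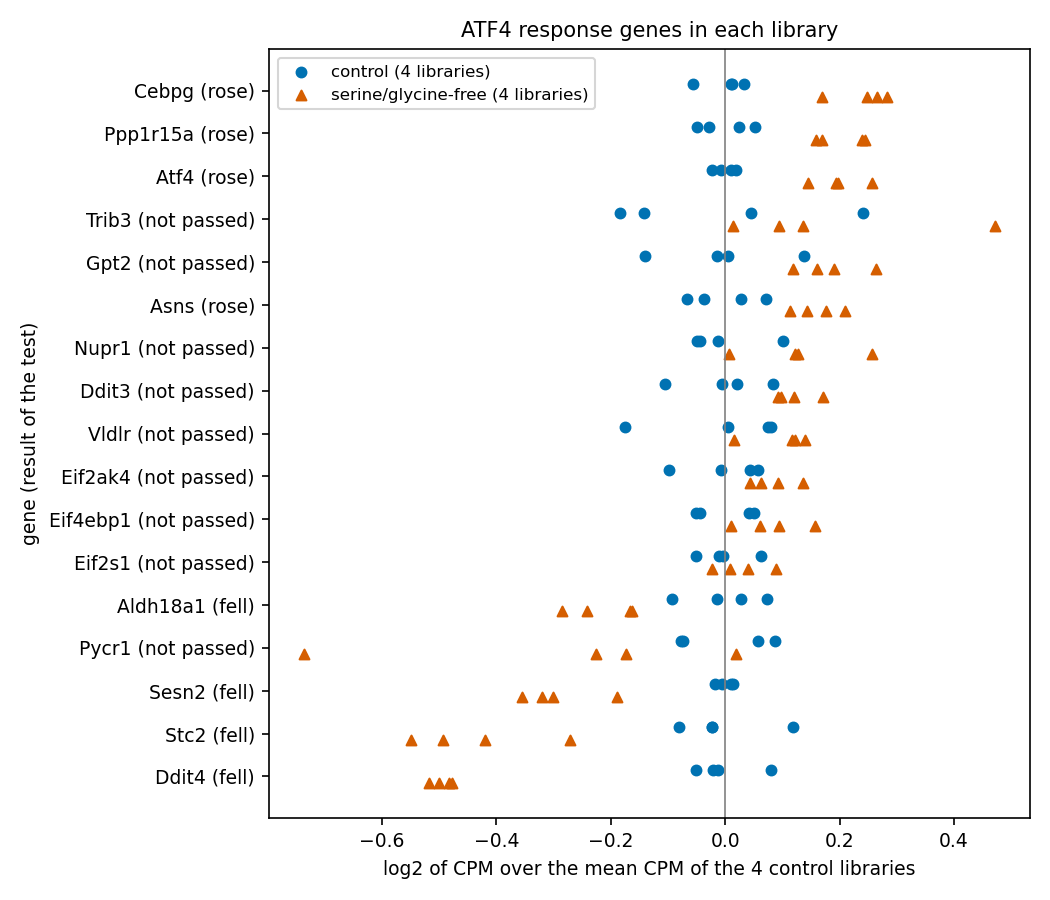
Each of the 17 ATF4 response genes in each library, as log2 of CPM over the mean of the 4 controls (circles, control; triangles, serine/glycine-free). The triangles of Cebpg, Ppp1r15a, Atf4 and Asns lie right of all their circles, and those of Ddit4, Stc2, Sesn2 and Aldh18a1 lie left of all theirs.

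Among the 19 synthetases, Aars, Cars and Nars rose. Aars had 163 CPM in each of the 4 controls and 182, 175, 177 and 178 CPM without serine and glycine. It rose by 9.34% (95% interval 5.2% to 13.7%, log2 change 0.13, SE 0.028, adjusted p = 0.000235). Its annotated exons share 14.3% of their bases with Exosc6 on the same strand, a gene at 23.0 TPM (a level scaled for transcript length) on average where Aars had 90.5 TPM. Cars, which charges the tRNA for cysteine (Entrez 27267, chr7:143557230-143600090, minus strand), had 37.7, 36.2, 37.8 and 37.2 CPM in the controls and 42.7, 40.4, 43.4 and 45.4 CPM without serine and glycine. It rose by 15.5% (log2 change 0.21, SE 0.045, adjusted p = 0.000283), the highest change of any synthetase here. Nars, for asparagine, had 242, 244, 229 and 233 CPM in the controls and 263, 251, 256 and 261 CPM without serine and glycine, a rise of 8.81% (log2 change 0.12, SE 0.028, adjusted p = 0.000467). In all 3 genes each serine/glycine-free library was above each control.

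Vars and Eprs fell. Vars, for valine (Entrez 22321, chr17:35000907-35016329, plus strand), had 129, 130.2, 131 and 121 CPM in the controls and 109.8, 114, 108 and 114 CPM without serine and glycine. It fell by 12.8% (log2 change -0.20, SE 0.032, adjusted p = 2.73e-06), and the groups did not overlap. Eprs, a single protein with activities for glutamate and proline, had 222, 213, 221 and 222 CPM in the controls and 211, 207, 208 and 199 CPM without serine and glycine. The gap between the groups was small, and Eprs fell by 5.92% (log2 change -0.088, SE 0.028, adjusted p = 0.0112).

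The enzymes for the 2 amino acids missing from the medium did not pass. Sars, for serine, had 141, 145, 142 and 143 CPM in the controls and 146, 151, 147 and 143 CPM without serine and glycine. The groups overlapped, and the change was 3.09% (95% interval -1.01% to 7.36%, adjusted p = 0.257 in edgeR). Gars, for glycine, had 127, 125, 118 and 124 CPM in the controls and 122, 121, 119 and 118 CPM without serine and glycine. The groups overlapped here too, and the change was -2.89% (95% interval -6.99% to 1.38%, adjusted p = 0.310 in edgeR).

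The other 12 synthetases that did not pass had log2 changes from -0.088 to 0.074, each with overlapping groups. Farsa and Farsb, the subunits of the phenylalanine enzyme, had -0.088 (adjusted p = 0.0961) and -0.067 (adjusted p = 0.109). Qars, for glutamine, had -0.074 (adjusted p = 0.0750), and Rars, for arginine, had 0.074 (adjusted p = 0.0603). These 4 were the nearest to the threshold, and some of them passed under other settings. Rars rose with scaling by library size alone (adjusted p = 0.0347), at a mean of at least 5 CPM (0.0485), or without serine/glycine-free replicate 1 (0.0359), serine/glycine-free replicate 2 (0.0454) or control replicate 1 (0.0448). Farsa fell without serine/glycine-free replicate 4 (adjusted p = 0.0299). After removal of the trend with gene length in each library, Farsa, Farsb and Qars fell (adjusted p = 0.00464, 0.00635 and 0.00845). In that setting 2335 of all genes tested fell, against 2027 in the main test. Kars (lysine), Tars (threonine), Yars (tyrosine), Dars (aspartate) and Iars had positive estimates of 0.059, 0.026, 0.043, 0.014 and 0.014 on the log2 scale, and Hars (histidine), Lars (leucine) and Wars (tryptophan) had estimates of -0.0071, -0.00098 and -0.041. Hars shares 195 exon bases (7.97% of its own) with Hars2 on the opposite strand, a gene at 17.7 TPM on average. Over all 14 genes that did not pass, the 95% intervals reached from -11.2% to 9.94%, so that a change beyond those sizes lay outside every interval.

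Synthetases fall into 2 structural classes with unrelated catalytic folds. Eprs joins a class I glutamate enzyme to a class II proline enzyme and is counted under class I alone. Of the 9 class I enzymes 1 rose (Cars), 2 fell (Eprs and Vars) and 6 did not pass, with a median log2 change of -0.00098. Of the 10 class II enzymes 2 rose (Aars and Nars), 0 fell and 8 did not pass, with a median of 0.020. A number of synthetases are bound in one large multisynthetase complex in mammalian cells. Of the 7 enzymes of that complex among the 19, 0 rose, 1 fell (Eprs) and 6 did not pass, and of the 12 enzymes outside it 3 rose, 1 fell (Vars) and 8 did not pass. Mars, the methionine enzyme, and the scaffold proteins of the complex are counted further on, in another list. Mars is counted in the wider set of ATF4 targets below as well. Of 11 synthetases often listed as ATF4-induced, 3 rose and 1 fell with a median of 0.026, and of the 8 others 0 rose and 1 fell with a median of -0.037. Over all genes tested 15.9% rose and 17.3% fell, and the subgroups are too small to set their counts apart from those shares. The differences between these subgroups were not tested.

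**Figure D3:**
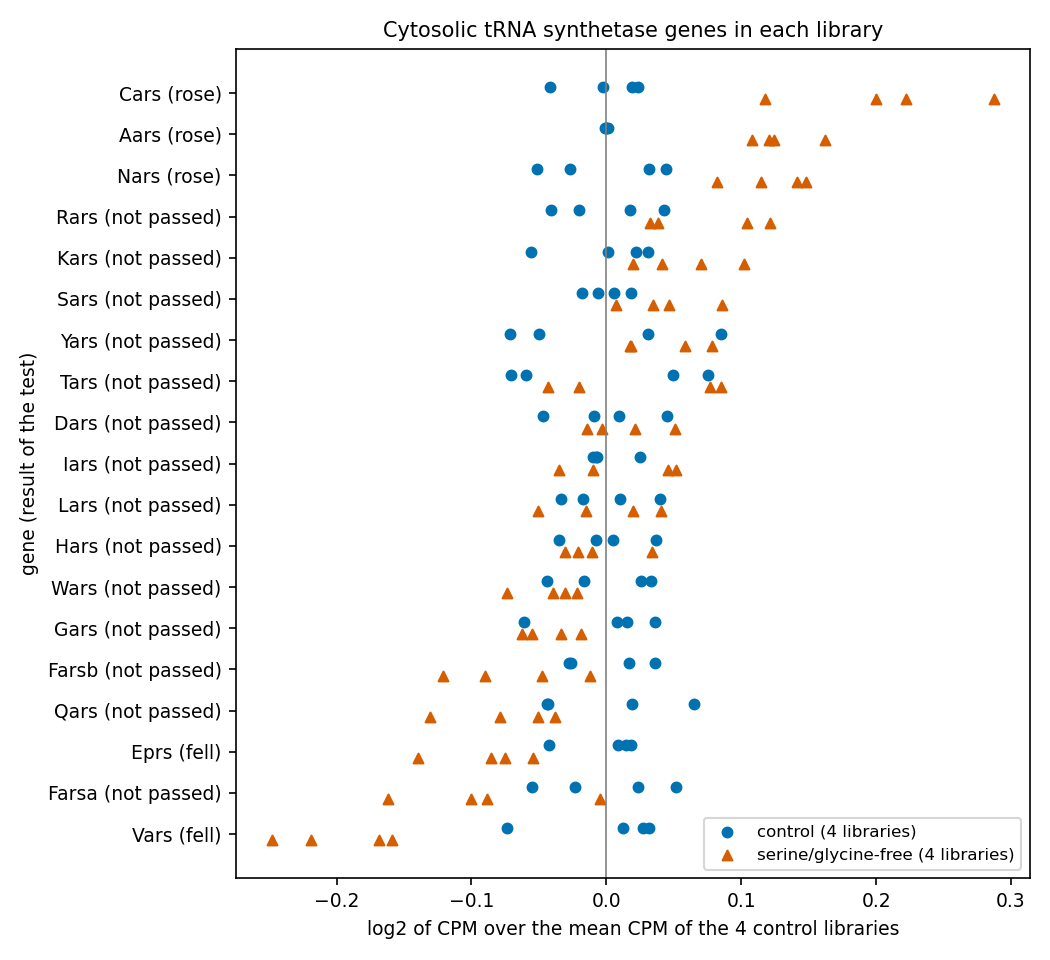
Each of the 19 cytosolic tRNA synthetases in each library, as log2 of CPM over the mean of the 4 controls (circles, control; triangles, serine/glycine-free). Triangles and circles are separate for Cars, Aars, Nars, Eprs and Vars and overlap for the other 14.

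Levels can be compared between genes only per transcript length, and the deposited TPM values served for that. In the controls the synthetases spanned a 6.38-fold range, from 27.0 TPM ± 0.383 (SD, n = 4) for Cars to 172 TPM ± 5.05 for Nars, with a median of 87.0 TPM. The ATF4 response genes spanned a 135-fold range, from 1.30 TPM ± 0.0753 for Pycr1 to 175 TPM ± 1.87 for Atf4, with a median of 23.5 TPM. Below Nars came Rars at 118 TPM ± 1.95 and Dars at 111 TPM ± 3.68. Gars at 100.1 TPM ± 2.25 and Kars at 99.3 TPM ± 2.97 were closer than their spread, as were Eprs at 87.3 TPM ± 1.12 and Aars at 87.0 TPM ± 0.743. The genes most abundant after Atf4 among the ATF4 response genes were Eif4ebp1 at 127 TPM ± 3.71 and Eif2s1 at 107 TPM ± 3.23, and the least abundant after Pycr1 were Vldlr at 3.02 TPM ± 0.142 and Trib3 at 3.48 TPM ± 0.502. Ddit4, at 64.7 TPM ± 2.92, was level with Ddit3 at 61.6 TPM ± 3.07 in the controls, and without serine and glycine they stood at 44.9 TPM ± 0.988 and 66.3 TPM ± 1.08. Summed over the 19 synthetases, TPM went from 1530.4 ± 11.1 to 1510.2 ± 27.6, and over the 17 ATF4 response genes from 755 ± 8.52 to 766 ± 11.6. Summed CPM of the synthetases, the scale used for testing, ran from 2197 to 2237 in the controls and from 2220.1 to 2239 without serine and glycine, so the sums on the 2 scales leaned in opposite directions. Neither sum was tested.

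**Figure D4:**
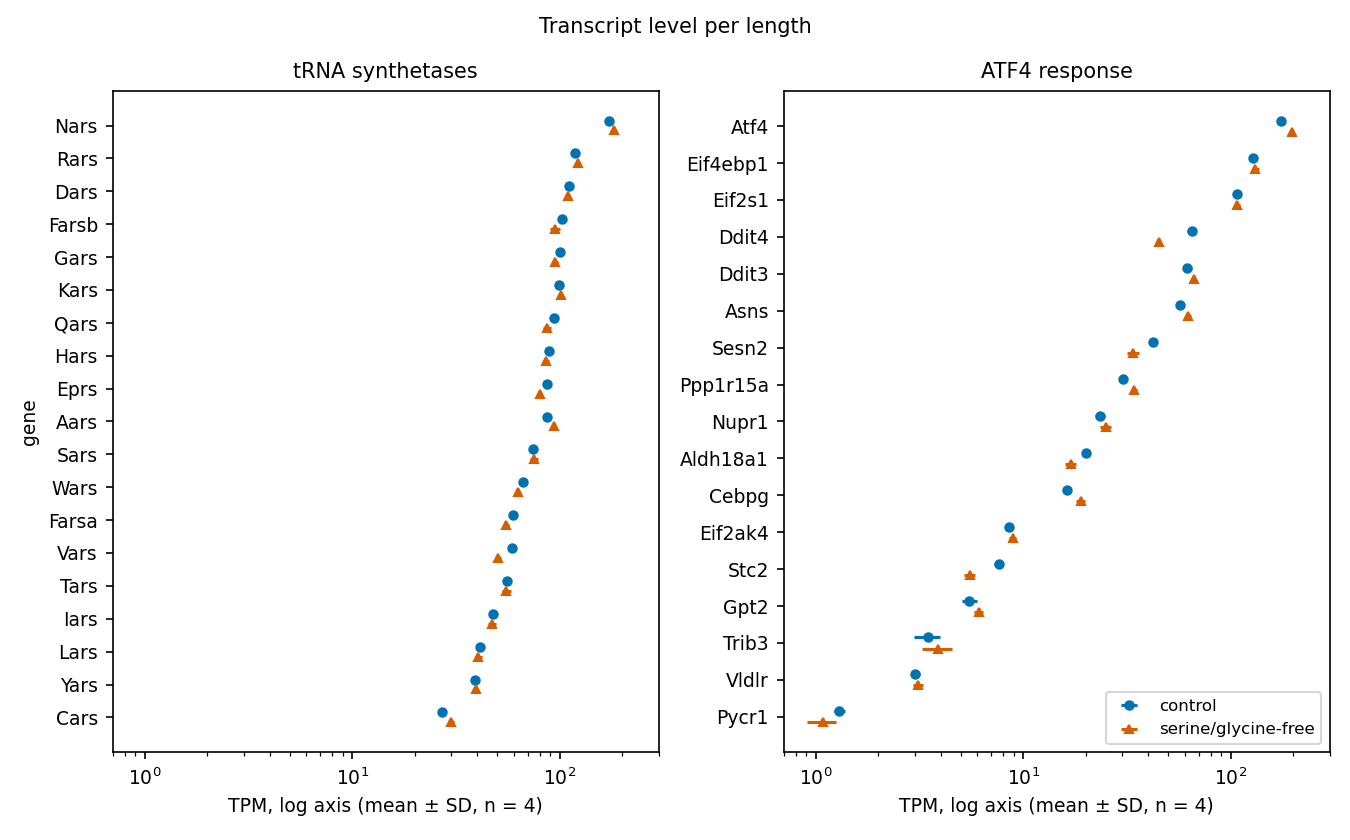
Mean TPM ± SD (n = 4 libraries a group, log axis) of the 19 synthetases and the 17 ATF4 response genes, ordered by the control level. The synthetases lie between 27.0 and 172 TPM in the controls, while the ATF4 response genes run from 1.30 to 175 TPM.

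The ATF4 response genes were then set against the synthetases. The median log2 change was 0.10 over the 17 ATF4 response genes, with 12 positive and 5 negative estimates, and 0.014 over the 19 synthetases, with 10 positive and 9 negative estimates. Sizes without regard to sign differed as well, with a median absolute log2 change of 0.19 for the ATF4 response genes and 0.059 for the synthetases against 0.10 over all genes tested. The ATF4 response genes had fewer counts and a larger SE, with a median SE of 0.048 against 0.032 for the synthetases. In each library the median over a list of log2 CPM relative to the control mean was also taken. For the ATF4 response genes it was 0.089, 0.12, 0.063 and 0.10 in serine/glycine-free replicates 1 to 4, and in the controls it lay between -0.021 and 0.020. For the synthetases it was 0.020, -0.011, 0.019 and -0.0041 in the serine/glycine-free libraries and between -0.0063 and 0.015 in the controls. The ATF4 median exceeded the synthetase median by 0.069, 0.13, 0.044 and 0.11 in the 4 serine/glycine-free libraries, and the 2 differed by -0.015 to 0.0089 in the controls. The difference of the median log2 changes, 0.087, was 0.022 once the trend with gene length was taken out of each library, and the ATF4 median was then 0.026. The median over all genes tested was then -0.014, against 0.0074 in the main test. No test was made of these medians.

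The genes upstream of ATF4 gave a mixed picture as well. A list of 15 tested genes held other eIF2 kinases, phosphatase subunits and eIF2 and eIF2B subunits, without Eif2ak4, Ppp1r15a and Eif2s1, together with Gcn1l1, Impact, Nck1 and Eif2d, which act on or beside them. Of these 15, 2 rose, 4 fell and 9 did not pass (40.0% called, against 33.2% of all genes tested), with a median log2 change of -0.011. Ppp1r15b (CReP), the constitutive partner of the eIF2 phosphatase, had 129.9, 138, 133 and 136 CPM in the controls and 125, 128, 123 and 118 CPM without serine and glycine. It fell (log2 change -0.12, SE 0.031, adjusted p = 0.00232), whereas its inducible relative Ppp1r15a rose. Eif2s2 rose from 143 CPM ± 4.85 to 154 CPM ± 2.80 (SD, n = 4 libraries, log2 change 0.11, edgeR adjusted p = 0.00287). Eif2s3x fell from 325 CPM ± 3.60 to 306 CPM ± 12.6 (log2 change -0.086, edgeR adjusted p = 0.0124), with an adjusted p of 0.0740 without serine/glycine-free replicate 4. The kinases for misfolded protein and double-stranded RNA, Eif2ak3 (PERK) and Eif2ak2 (PKR), had log2 changes of -0.16 (adjusted p = 0.0146) and -0.14 (adjusted p = 0.0332), and the heme-sensing kinase Eif2ak1 (HRI) had 0.099 (adjusted p = 0.0407). PERK no longer passed when serine/glycine-free replicate 3 (adjusted p = 0.0636) or control replicate 4 (0.0593) was left out, nor in DESeq2 (0.0590). PKR no longer passed when serine/glycine-free replicate 3 (0.0688), control replicate 3 (0.0934) or control replicate 4 (0.0662) was left out, and the HRI call was lost in 11 of 19 alternative settings (highest adjusted p = 0.197, without control replicate 4).

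A wider set of ATF4 targets from textbook lists was split in the same way, with 8 higher, 8 lower and 12 not passing of 28 tested, a median log2 change of -0.024. That is 57.1% called, against 33.2% of all genes tested, with 28.6% higher and 28.6% lower against 15.9% and 17.3%. The 3 with the smallest p were Herpud1, which serves the degradation of proteins from the endoplasmic reticulum, Slc3a2, the heavy chain of several amino acid transporters, and Psat1, an aminotransferase of serine synthesis. Herpud1 had 320.1 to 343 CPM in the controls and 251 to 257 CPM without serine and glycine, and fell (log2 change -0.38, adjusted p = 7.89e-16). Slc3a2 had 229 to 235 CPM in the controls and 296 to 314 CPM without serine and glycine, and rose (log2 change 0.38, adjusted p = 7.90e-16). Its estimated counts were not whole in any of the 8 libraries, as happens where RSEM divides reads among sequences. Psat1 had 103 to 112 CPM and 77.4 to 80.5 CPM, and fell (log2 change -0.43, adjusted p = 2.50e-14).

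Relatives of the ATF4 response genes were examined side by side with them, 17 tested, of which 6 rose, 5 fell and 6 did not pass (64.7% called, against 33.2% of all genes tested). Atf3, Atf5 and Cebpb are also counted in the wider set of targets, and Ppp1r15b in the list upstream of ATF4. The largest rise was that of Cebpa, a C/EBP factor of myeloid cells, with 51.7 to 56.2 CPM in the controls and 72.3 to 75.5 CPM without serine and glycine (log2 change 0.44, SE 0.038, adjusted p = 5.82e-13). Atf3, at 304 to 318 CPM in the controls and 364 to 375 CPM without serine and glycine, rose (log2 change 0.25, adjusted p = 5.18e-11), as did Atf5, at 28.1 to 29.6 CPM and 37.0 to 39.9 CPM (log2 change 0.39, adjusted p = 5.32e-09). Cebpd fell where Cebpg rose (log2 change -0.24, adjusted p = 0.000309), although its counts were not whole in any library. Sesn1 fell (log2 change -0.21, adjusted p = 7.11e-07), the same direction as Sesn2. Trib1 fell (log2 change -0.20, adjusted p = 9.39e-06), and Eif4ebp2 fell (log2 change -0.16, adjusted p = 1.12e-05), while the estimates of Trib3 and Eif4ebp1 were positive and did not pass.

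**Figure D5:**
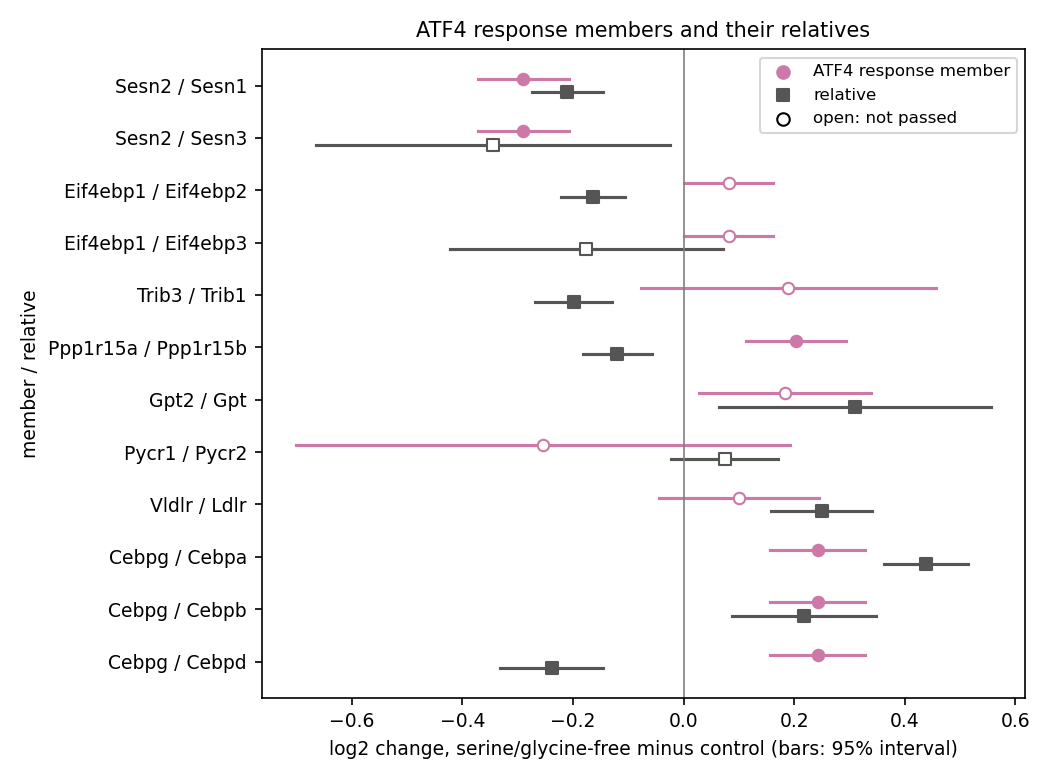
Log2 change with its 95% interval for ATF4 response genes (circles) and their relatives (squares), pair by pair, 4 libraries a group; open symbols did not pass. Ppp1r15a stands at 0.20 and Ppp1r15b at -0.12, Cebpg at 0.24 and Cebpd at -0.24, while Sesn2 and Sesn1 are both negative.

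Cytosolic synthetases have mitochondrial counterparts that charge the tRNAs of the organelle. Of 17 mitochondrial synthetases tested 0 rose, 1 fell and 16 did not pass (5.88% called, against 33.2% of all genes tested), with a median log2 change of 0.023. They had fewer counts and a larger SE, with medians of 16.6 CPM and 0.065, against 30.3 CPM and 0.052 over all genes tested. Their median absolute log2 change was 0.061, and that of the cytosolic synthetases 0.059. Wars2, for tryptophan, fell from 11.7, 11.9, 13.8 and 12.99 CPM to 10.7, 11.2, 10.3 and 9.77 CPM (log2 change -0.26, SE 0.077, adjusted p = 0.00702). Nars2, for asparagine, had 0.20 (SE 0.084, adjusted p = 0.0623), and passed without serine/glycine-free replicate 3 (0.0365) or 4 (0.0428). Iars2, for isoleucine, had -0.079 (SE 0.036, adjusted p = 0.0892). Of 9 tested genes for synthetase scaffolds, editing factors and the remaining cytosolic enzymes, 1 rose and 8 did not pass (11.1% called). The one that rose was Eef1e1, a scaffold of the multisynthetase complex, from 28.7 CPM ± 0.420 to 31.4 CPM ± 1.58 (SD, n = 4, log2 change 0.13, edgeR adjusted p = 0.0376), and its call was lost in 12 of 19 alternative settings, among them leaving out serine/glycine-free replicate 1 or 3 or any 1 control, with an adjusted p of up to 0.533 once the trend with length was removed. Aimp2, another scaffold, had -0.084 (adjusted p = 0.228) and Prorsd1 had 0.086 (adjusted p = 0.431).

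The tissue label was checked against markers. All 9 macrophage genes were present, summing to 19018 to 19472 CPM in the controls and 19029 to 19307 CPM without serine and glycine. Markers of T cells, dendritic cells, fibroblasts, erythroid cells and mast cells summed to at most 3.72 CPM in any library. Neutrophil markers, 8 of 8 listed, summed to 0.772 to 1.17 CPM in the controls and to 2.05 to 2.39 CPM without serine and glycine. Most of it was S100a8 (0.755 CPM and 1.87 CPM on average), while S100a9 had 0.167 CPM and 0.182 CPM. Elane, Ly6g and Camp averaged 0 CPM in the controls and 0.0139, 0.0421 and 0.0282 CPM without serine and glycine. Mpo went from 0.0280 CPM to 0 CPM, Ngp from 0.0140 CPM to 0.0416 CPM and Ltf from 0.0420 CPM to 0.0691 CPM. B cell markers summed to 43.5 to 51.2 CPM and to 32.1 to 38.9 CPM, nearly all of it Cd79b. The part of these shifts in the results was not tested.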

How the data were processed

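The deposited table held estimated counts, FPKM and TPM for each of 8 libraries. Per the submitters' processing notes, BWA, Bowtie2, RSEM and the mouse build GRCm38.p6 were used. The sources used here give no versions, filters or strand setting. Per the labels' protocols, Trizol RNA was captured on oligo-dT beads. The deposited estimated counts, made by the authors, were rounded; those of the 36 genes were whole. FPKM values by the authors served only to derive effective length. TPM values deposited by the authors, scaled within each library, were used for levels and no test. The authors' group averages were not used.

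Genes passing edgeR's filter (minimum count 10, minimum total 15) were compared in edgeR 4.0.16 (R 4.3.3), 4 libraries against 4, with TMM scaling and the robust quasi-likelihood F test; p-values were adjusted by Benjamini-Hochberg over all 11700 tested genes at a threshold of 0.05, without a replicate block. SE came from the F statistic. CPM values are TMM-scaled. The most that a count of 0 allows, 3 counts, was 0.165 to 0.171 CPM (counting error only). Within groups all 12 pairs differed by more than sampling noise (chi-square per degree of freedom 1.42 to 3.60).

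The members and lists were chosen with earlier results of these data known. All 36 members are named; of each further list the 3 genes with the smallest p, and any that a count of 5 or fewer singles out. Alternatives were other scaling (DESeq2 size factors, library size alone), low-count filters, limma-voom (limma 3.58.1), DESeq2 1.42.0, a replicate block, each library left out in turn, an adjusted p under 0.01, a change of at least 1.2-fold, removal of the length trend and unrounded counts. The edgeR fit alone was tried on simulated counts, in which all genes shared a common dispersion (the spread beyond sampling noise). Coordinates come from an annotation of that build, looked up by Entrez ID.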

Additional observations from a re-analysis of the deposited data

Results flagged for a closer look

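In 72 sets of 4 libraries, 36 genes in each of 2 groups, the highest or lowest value was screened for distance from the others, and 2 values stood out (chance flags about 1 in 20 such sets). Eprs in control replicate 2 had 213 CPM, below the 221 to 222 CPM of the other controls, with a gap of 0.846 of the range. Iars in control replicate 4 had 113 CPM, above the 111 CPM of the other controls, with a gap of 0.922 of the range. Without control replicate 2 the fall of Eprs still passed (log2 change -0.10, adjusted p = 0.00815), and without control replicate 4 Iars still did not pass (log2 change 0.021, adjusted p = 0.694).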

How the results depend on the processing

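Each result was recomputed under 19 alternatives. All 13 genes called among the 36 kept their direction in each of them, and Ddit4, Sesn2 and Stc2 also kept their call in each. The other 10 lost theirs where a change of at least 1.2-fold was required, and Eprs also at an adjusted p under 0.01. Of the 23 genes that did not pass, 17 never passed. At an adjusted p under 0.01, 3 synthetases were higher and 1 was lower, where 1239 of all genes tested were higher and 1528 lower. With a change of at least 1.2-fold, 816 genes were higher and 584 lower among all tested, and 0 synthetases were higher, 0 lower and 0 ATF4 response genes higher. With the length trend removed, 1574 of all genes tested were higher and 2335 lower, with a median log2 change of -0.014. Under that setting 5 synthetases were lower (Eprs, Vars, Farsa, Farsb and Qars). The ATF4 median log2 change was then 0.026 and its excess over the synthetases 0.022. The cause was not tested.

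Leaving out 1 library gave 1589 to 1794 higher and 1790 to 1966 lower genes, 3 to 4 synthetases higher and 2 to 3 lower, 4 to 5 ATF4 response genes higher and 4 lower. The synthetase median then lay between -0.0018 and 0.021, the ATF4 median between 0.080 and 0.11, and their difference between 0.066 and 0.12. Changes near 0 that did not pass changed sign. The log2 change of Hars was 0.0018 with library size alone, and without 1 library it ran from -0.021 to 0.0048, 0.0016 among them. Lars had 0.0079 with library size alone, 0.0017 at a mean of at least 5 CPM, 0.0039 without the length trend, and without 1 library it ran from -0.015 to 0.015. Dars ran from -0.0018 to 0.029 without 1 library and had -0.017 without the length trend, where Eif4ebp1 had -0.0099. Trib3 and Pycr1 were too scarce for the setting with a mean of at least 5 CPM.

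Equal replicate numbers did not pair the libraries: the correlation of their deviations ran from -0.0943 to 0.0609, and 1 of 4 serine/glycine-free libraries correlated best with its own number. With a replicate block, 1771 genes were higher and 1884 lower, 3 and 2 synthetases and 4 and 4 ATF4 response genes, with medians of 0.013 and 0.10 and a difference of 0.087. Of the genes named, Eef1e1 (adjusted p = 0.0534) and Eif2ak1 (0.0605) lost their call under the block. Depth limits the scarce genes: the interval of Pycr1 spanned -0.70 to 0.19 and that of Trib3 -0.078 to 0.46.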
